A study of Mus musculus with 20 samples.

Results

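Public T cell receptor (TCR) β chains, those whose complementarity-determining region 3 (CDR3) had the same amino acid sequence in 2 or more mice, were compared with private chains, which were found in 1 mouse. Follicular T cells were sorted from the spleens of 10 bone marrow chimeras on the C57BL/6 background, and 1 gene expression library and 1 TCR library were made from each mouse. Irradiated recipients were given congenic wild-type marrow (5 WT chimeras) or the same kind of marrow mixed with marrow from 564Igi mice (5 564Igi chimeras), whose knocked-in heavy and light chains form a B cell receptor against ribonuclear complexes. Only the WT chimeras received an antigen, NP-OVA with alum from week 6, with a boost by the study's methods, and every mouse was analysed at week 10 after irradiation. The recipients were adult mice of both sexes, and the sorted cells were CD3+CD4+, carried CXCR5 and PD-1, and were taken by congenic marker as CD45.2+CD45.1-. The knocked-in receptor is a B cell receptor, so the T cells of both groups rearranged their own TCR genes. Autoreactive B cells, immunization and the marrow mixture differed together between the groups and cannot be told apart.

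The receptor table held 33833 cells with an α and a β chain. Of these, 30073 had 1 TRAJ name, 1 TRBJ name and 2 CDR3 sequences, and in 19980 exactly 1 of the sequences began with Cys-Ala-Ser-Ser and was taken as the β chain. These cells, 59.1% of the table, carried 6574 different CDR3β amino acid sequences. Of those, 6253 were private and 321 (4.88%) were public, and the public chains were carried by 2652 cells (13.3%). Most public chains, 265, were found in exactly 2 mice, 46 in 3 mice, 8 in 4 mice and 2 in 5 mice. None was found in more than 5.

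A TCR β chain is made by joining 1 variable (V), 1 diversity (D) and 1 joining (J) segment of the Trb locus, and the CDR3 spans the junctions. At each junction bases are trimmed from the segment ends and others are added without a template by terminal deoxynucleotidyl transferase, so most CDR3β sequences are rare and a junction with few added bases is easier to form again. The CDR3β, together with the CDR3α, makes most of the contact with the peptide held by an MHC molecule. Follicular helper (TFH) cells help germinal centre B cells, and follicular regulatory (TFR) cells, which express Foxp3, restrain that help.

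Each mouse gave 1209 to 2839 cells and 451 to 1056 different CDR3β. The rule on the leading residues removed 95.3% to 100% of the cells named TRBV1, TRBV13-2 (alone or with TRBV12-2), TRBV20, TRBV23, TRBV30 and TRBV31, so these V genes were not compared. It also removed cells of the V genes that were compared, from 1.99% of TRBV5 to 21.9% of TRBV29. For TRBV19, TRBV26 and TRBV3 it removed 15.8%, 7.34% and 3.38%. In all, 227 cell barcodes occurred in 2 or more libraries, and none of them carried the same CDR3β in both. WT mouse 14 stood apart in its receptor table, with 1.86 different α chains per private β chain against 1.08 to 1.23 in the other 9 mice. Its gene expression library held 134 of its 389 public cells, but that of 564Igi mouse 24 held 96 of 252, so mouse 14 was not alone in this. Several of the results that rest on WT mouse 14 are given with and without it. Markers of other cells were sparse in the gene expression table, where Cd79a and Ms4a1 (B cells) were detected in 0.291% and 0.0441% of cells. Cd8b1 was detected in 4.35% and Klrb1c (innate-like T cells) in 3.74%, and 1 cell carried the invariant natural killer T receptor genes TRAV11 and TRAJ18.

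Of the 2 chains found in 5 mice, the one with more cells had 12 residues. WT mouse 14 held it in 24 cells, 564Igi mouse 13 in 7 cells, and WT mouse 11, WT mouse 12 and 564Igi mouse 34 in 1 cell each. It had 5 nucleotide sequences, each in 1 mouse, and differed in its V gene while TRBJ2-2 was used in all 34 cells. The sequences are shown because they carry the main observation, that the same chain was encoded with different V genes and few added bases. They are printed 5′ to 3′ from the cysteine to the phenylalanine codon, with capitals for the bases between the longest match to the germline V segment and the longest match to a germline J segment.
TRBV15 and TRBJ2-2, WT mouse 14: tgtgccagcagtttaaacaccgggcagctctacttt
TRBV12-2 and TRBJ2-2, 564Igi mouse 13: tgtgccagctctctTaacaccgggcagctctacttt
TRBV16 and TRBJ2-2, WT mouse 11: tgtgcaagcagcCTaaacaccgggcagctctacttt
TRBV16 and TRBJ2-2, WT mouse 12: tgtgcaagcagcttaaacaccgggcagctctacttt
TRBV3 and TRBJ2-2, 564Igi mouse 34: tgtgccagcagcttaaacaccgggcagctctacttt

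Of these 5 sequences, 3 had no base between the V and the J match. The 5 differed from each other at 1 to 6 bases and encoded 1 amino acid sequence. They were joined to 18 different α chains. WT mouse 14, which had more α chains per β chain than the other mice, held 24 of the 34 cells. No count of α chains without it is given.

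The other chain found in 5 mice had 14 residues and was carried by 11 cells. WT mice 11 and 23 and 564Igi mouse 24 held 1 cell each, WT mouse 14 held 2, and 564Igi mouse 21 held 6. It used TRBJ1-1 throughout and 5 V gene names, of which the commonest among its cells is given for each sequence, or 1 of those tied. TRBV15 was named in 1 cell of the chain, so the 2 cells with the sequence given as TRBV15 differed in V name. The V match and the non-templated bases of that sequence rest on the name chosen. The run of guanines in each junction matches a D segment.
TRBV26 and TRBJ1-1, 564Igi mouse 21: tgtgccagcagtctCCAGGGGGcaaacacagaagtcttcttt
TRBV15 and TRBJ1-1, WT mouse 11 and 564Igi mouse 24: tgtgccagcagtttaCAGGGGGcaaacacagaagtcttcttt
TRBV19 and TRBJ1-1, WT mouse 14: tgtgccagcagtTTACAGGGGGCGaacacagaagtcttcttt
TRBV12-2 and TRBJ1-1, 564Igi mouse 21: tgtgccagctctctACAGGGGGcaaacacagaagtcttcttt
TRBV10 and TRBJ1-1, WT mouse 23: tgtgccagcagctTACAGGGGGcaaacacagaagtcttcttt

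The 5 sequences differed from each other at 1 to 4 bases. Once bases that match a D segment were set aside, 0 to 3 bases of each remained non-templated. The name TRBV10 in the table stood for the segment annotated as Trbv4 (chr6:41059394-41059886, plus strand, GRCm38), where 98.1% of the 1741 contigs with that name matched.

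The sharing of an amino acid sequence was seldom the sharing of a nucleotide sequence. Among the 321 public chains, 278 (86.6%) had no nucleotide CDR3 in common between any of their mice, and 43 had one. Of the chains in 4 or 5 mice, only a chain of 12 residues in 4 WT mice had 1 nucleotide sequence in all of its mice, and it is shown for that.
TRBV3 and TRBJ2-4, WT mice 11, 12, 14 and 23: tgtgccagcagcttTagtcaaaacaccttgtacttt

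This sequence was carried by 5 cells, and the chain by 9 cells, with 2 further sequences in WT mouse 11 and no 564Igi cell. Of the 9 cells, 5 were named TRBV10 and 4 TRBV3. Some cells with the printed sequence were therefore named TRBV10, and it need not come from 1 V gene in all 4 mice. Within a mouse a public chain had 1.05 ± 0.0307 (SD, n = 10 mice) different nucleotide sequences and a private chain in 1.01 ± 0.00283. The difference was 0.0428 ± 0.0301 (exact sign-flip test over mice, two-sided p = 0.00586).

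Public chains mostly kept their J gene name and often changed their V gene name. By the commonest name in each mouse, 306 of the 321 (95.3%) used 1 TRBJ name in all their mice and 98 (30.5%) used 1 TRBV name. A listed name can belong to another contig of the cell, so some changes of name need not be changes of gene. By comparison, randomly matched chains of a mouse share a TRBJ name in 9.97% and a TRBV name in 8.12% of pairs, as the mean over the 10 mice of the pairs within a mouse. The J segment encodes the last residues of the CDR3 and so is largely fixed by the amino acid sequence, whereas the V segments of these chains share Cys-Ala-Ser-Ser, which the rule required. A TRAV name was shared between any of their mice by 39 public chains (12.1%), where random pairs share one in 1.97%. The values are not on the same basis, since a public chain can have several α chains and mice to match.

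Public chains had fewer non-templated bases than private chains in every mouse. The mean number of bases that matched neither the germline V, D nor J segment was 2.37 ± 0.196 (SD, n = 10) in public and 4.18 ± 0.277 in private chains. Public chains ranged from 1.92 to 2.58 and private chains from 3.73 to 4.604 over the mice, so the classes did not overlap, and the difference ran from -1.22 in WT mouse 11 to -2.29 in WT mouse 14. The mean difference was -1.81 ± 0.311, with a 95% interval of -2.03 to -1.58 (exact sign-flip test, p = 0.00195, the smallest that 10 mice allow). Public chains are counted in each mouse that holds them, so the mice share members and are not fully independent here or in the comparisons below.

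Junctions with no added base were 18.7% of public and 5.69% of private chains, a difference of 13.03 ± 3.29 percentage points that was positive in all 10 mice (p = 0.00195, exact sign-flip test). All bases between the V and the J match numbered 7.57 in public and 10.2 in private chains. The J match was longer in public chains, at 18.5 against 17.9 bases, and the V match slightly shorter, at 13.8 against 14.03 bases, each with an exact p of 0.00195. At equal CDR3 length the non-templated bases still differed by -1.40 (exact p = 0.00195), a comparison chosen after the data were seen.

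**Figure D1:**
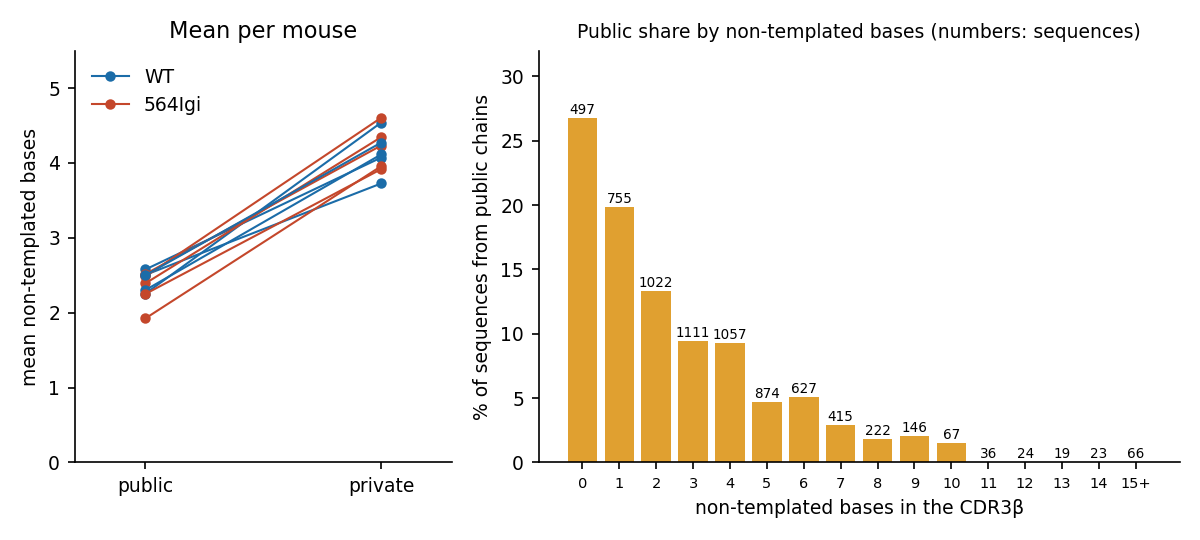
Left, mean number of non-templated bases per CDR3β in public and private chains, 1 line per mouse, WT in blue and 564Igi in red. Right, percentage of nucleotide CDR3β sequences, pooled over the 10 mice, that belong to a public chain, by their number of non-templated bases. The number of sequences is above each bar, and a sequence counts again where its V or J name differed between mice. Public chains enter with more sequences each than private chains. All 10 lines rise from public to private, and the public share falls from 26.8% at 0 bases to 1.80% at 8 bases.

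Counted over sequences pooled from all mice, 133 of the 497 with no non-templated base (26.8%) belonged to a public chain. The share was 19.9% of 755 with 1 base, 13.3% of 1022 with 2 bases, 4.69% of 874 with 5 bases and 1.80% of 222 with 8 bases. Above 10 bases no sequence belonged to a public chain, and these classes held only 19 to 66 sequences each. Public chains enter this count with more sequences each, 1.97 on average for chains in 2 mice against 1.01 for chains in 1 mouse. A sequence whose V or J name differed between mice was also counted more than once. These shares of sequences are therefore not on the same basis as the 4.88% of chains that were public. The chains in 1, 2 and 3 mice had 4.15, 2.50 and 2.001 non-templated bases on average. The 8 chains in 4 mice had 2.03, no fewer than those in 3 mice, and the 2 chains in 5 mice had 0.883.

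Public chains were shorter. Their mean CDR3β length was 13.3 ± 0.168 residues (SD, n = 10), against 14.04 ± 0.0799 in private chains. The difference was -0.756 ± 0.217 residues, with a 95% interval of -0.912 to -0.604, and public chains were shorter in 10 of 10 mice (exact sign-flip test, p = 0.00195). In WT mice 11, 12, 14, 23 and 36 the difference was -0.395, -0.637, -0.709, -0.632 and -0.574 residues. In 564Igi mice 13, 17, 21, 24 and 34 it was -0.980, -0.819, -0.777, -0.894 and -1.15 residues, so the conditions did not overlap. This contrast of conditions was 1 of 58 compared and did not pass adjustment (exact permutation test, adjusted p = 0.153).

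**Figure D2:**
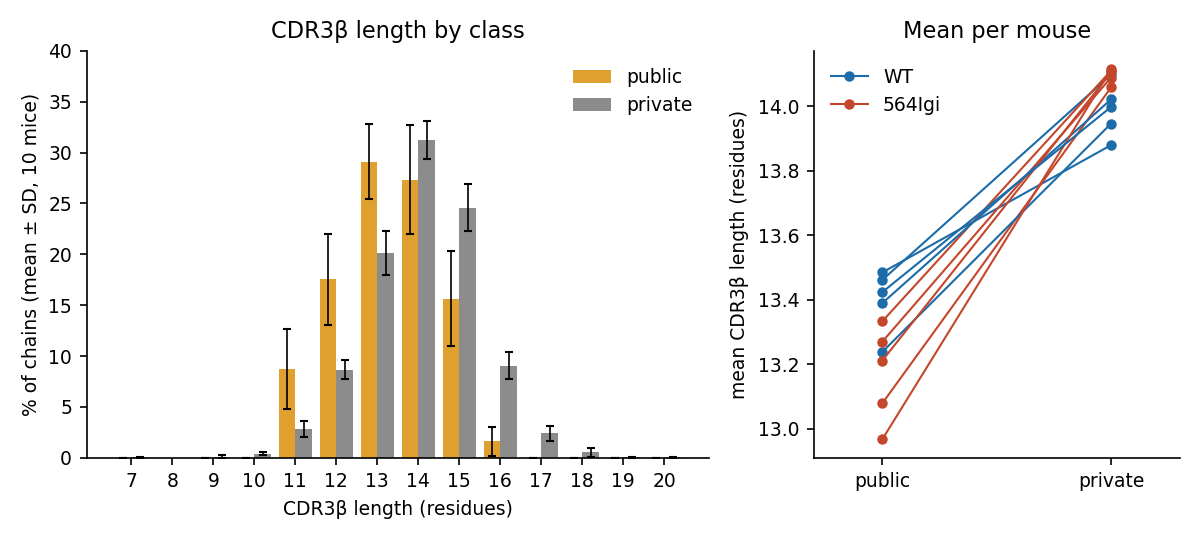
Left, distribution of CDR3β length in public and private chains, as the mean percentage of a mouse's chains with its SD over 10 mice. Right, mean length per mouse, WT in blue and 564Igi in red, on an axis that does not start at 0. Public chains peak at 13 residues and private chains at 14, and every mouse has the lower mean in its public chains.

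The classes differed most from 11 to 13 and from 15 to 16 residues. Chains of 11 residues were 8.72% of public and 2.84% of private chains, and those of 12 residues 17.5% and 8.65%. Chains of 13 residues were 29.1% and 20.1%, and at each of these 3 lengths the public share was the larger in 10 of 10 mice. Chains of 15 residues were 15.6% of public and 24.6% of private chains, and those of 16 residues 1.65% and 9.04%, lower in the public class in all 10 mice. At 14 residues, the commonest length of private chains, the shares were 27.3% and 31.2%, and the public share was the larger in 4 mice. Of the 145 chains with 17 residues none was public. Read the other way, 12.98% of the 208 chains with 11 residues were public, 6.91% of the 1360 with 13 and 1.06% of the 565 with 16. At the short end, none of the 26 chains with 10 residues was public.

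Public chains were also shorter than private chains that had the same TRBV and TRBJ in the same mouse, with a difference of -0.639 ± 0.191 residues (exact p = 0.00195). Public chains whose mice were all of 1 condition differed by -0.443 ± 0.236 residues in WT and by -1.05 ± 0.173 in 564Igi chimeras. In both they were shorter in 5 of 5 mice, and 5 mice cannot give an exact p below 0.0625. With each public chain counted in only 1 of its mice, so that mice shared no member, the difference was -0.732 residues (exact p = 0.00195).

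Gene use differed between the classes for 4 of the 15 TRBV genes with at least 1% of chains (26.7% called) and 3 of the 12 TRBJ genes (25% called), taking an exact sign-flip p below 0.05 after Benjamini-Hochberg adjustment. Each different combination of CDR3β and gene was counted once per mouse. TRBV3 and TRBV26 were used more by public chains and TRBV19 and TRBV29 less, while TRBJ2-7 was used more and TRBJ1-5 and TRBJ1-6 less. These counts moved more with the settings than did length, and the range is given beside the genes.

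TRBV3 (Trbv3, chr6:41048290-41048828, plus strand, GRCm38) made up 18.99 ± 3.70% of public and 14.5 ± 2.75% of private chains. In WT mice 11, 12, 14, 23 and 36 it was 26.0%, 13.5%, 16.7%, 18.4% and 19.7% of public chains and 21.3%, 11.99%, 13.1%, 15.3% and 14.03% of private chains. In 564Igi mice 13, 17, 21, 24 and 34 it was 20.7%, 17.5%, 16.7%, 16.98% and 23.8% of public and 12.6%, 11.7%, 14.3%, 15.6% and 14.96% of private chains. Its share was thus the larger among public chains in 10 of 10 mice, by 4.50 ± 2.60 percentage points (adjusted p = 0.0146, exact).

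TRBV26 (Trbv26, chr6:41227505-41227993) made up 7.70% of public and 4.81% of private chains and was higher in 9 of 10 mice, all but WT mouse 36 (adjusted p = 0.0146, exact). TRBV19 (Trbv19, chr6:41178375-41179048) made up 5.03% of public and 8.71% of private chains. It was lower in the public class of all 10 mice, from -1.299 percentage points in WT mouse 36 to -6.10 in 564Igi mouse 13, and the mean difference was -3.68 ± 1.84 (adjusted p = 0.0146, exact). TRBV29 (Trbv29, chr6:41271394-41271881) was rare in both, at 0.995% and 2.31%, and lower in 9 of 10 mice (adjusted p = 0.0146, exact).

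TRBV15, at 10.2% against 6.87%, and TRBV2, at 6.29% against 10.1%, had differences of 3.34 and -3.85 percentage points in 8 of 10 mice each, with an adjusted p of 0.0586 (exact). TRBV13-1, at 6.14% against 8.57%, had an adjusted p of 0.0670 (exact). Leaving out 1 mouse at a time and naming the public chains again moved the number of called TRBV genes between 0 and 8. It was 0 without 564Igi mouse 21 and without WT mouse 23, 8 without 564Igi mouse 13 and 7 without 564Igi mouse 34.

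TRBJ2-7 (Trbj2-7, chr6:41543810-41543856), the J gene used most in these cells, made up 22.5 ± 5.65% of public and 16.4 ± 1.94% of private chains. In WT mice 11, 12, 14, 23 and 36 the difference was 1.91, 6.63, 5.15, 2.11 and 8.02 percentage points. In 564Igi mice 13, 17, 21, 24 and 34 it was 7.03, 2.03, 16.5, 9.14 and 1.65 percentage points, so that it was positive in all mice and by far the widest in mouse 21. The mean difference was 6.01 ± 4.62 (adjusted p = 0.0234, exact).

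TRBJ1-5 (Trbj1-5, chr6:41535084-41535133), at 1.59% of public and 3.37% of private chains, and TRBJ1-6 (Trbj1-6, chr6:41535554-41535606), at 1.10% and 3.12%, were lower in 9 and 8 of 10 mice (adjusted p = 0.0469 each, exact). TRBJ1-4 and TRBJ2-1 had larger differences, -3.12 and -3.09 percentage points, that did not pass the test (adjusted p = 0.0703 and 0.0844, exact), and TRBJ2-5 and TRBJ2-3, at 2.07 and 1.63, did not either. The number of called TRBJ genes was 0 to 3 when 1 mouse was left out. It was 0 without WT mouse 12 and 1 without mouse 13, 14, 17, 21, 24 or 34. With each public chain counted in 1 of its mice, no TRBV and no TRBJ gene was called.

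**Figure D3:**
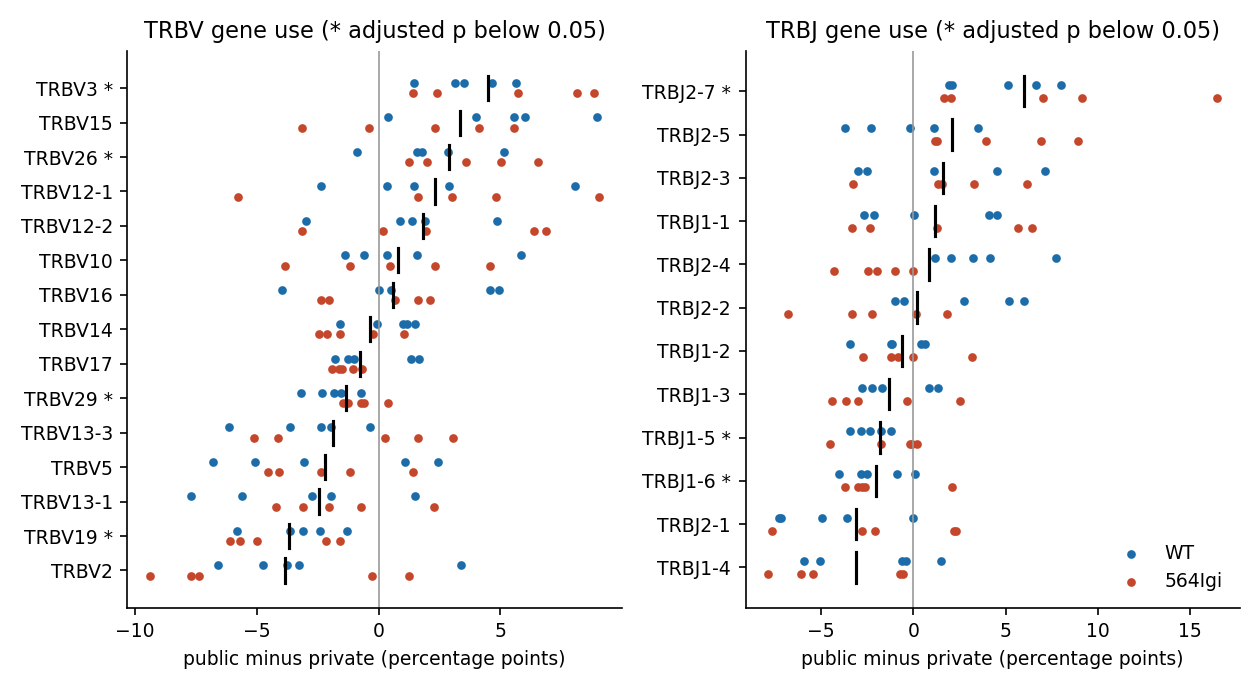
Difference in gene use between public and private chains in percentage points, for 15 TRBV genes (left) and 12 TRBJ genes (right). Each point is 1 mouse (WT in blue, 564Igi in red), the black bar is the mean over 10 mice, and stars mark an adjusted p below 0.05. All points of TRBV3 and TRBJ2-7 lie right of 0 and all points of TRBV19 left of it.

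The central residues of the CDR3β also differed, with 12 of 20 residues called (60% called). Residues were counted without the first 4 and the last 5 of each CDR3β. Leucine, glycine, serine and asparagine were more frequent in public chains. Leucine made up 11.1 ± 0.989% of central residues in public and 7.82 ± 0.678% in private chains. It was higher in the public class of all 10 mice, by 1.19 percentage points in WT mouse 36 up to 5.72 in 564Igi mouse 17 (adjusted p = 0.00781, exact).

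Glycine was 25.5% against 23.7% (adjusted p = 0.0112, exact), and the D segments, rich in G, encode glycine in several frames. Serine was 8.63% against 6.91% (adjusted p = 0.0213, exact) and asparagine 7.86% against 6.66% (adjusted p = 0.0358, exact). Valine, isoleucine, lysine and methionine were lower in public chains of 10 of 10 mice (adjusted p = 0.00781 each, exact). Valine fell from 2.28% of private to 0.570% of public central residues and isoleucine from 1.80% to 0.507%. Glutamate, proline, histidine and phenylalanine were lower as well (adjusted p from 0.0112 to 0.0195, exact).

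Compared within the same CDR3 length, an alternative chosen after the data were seen, 11 of the 20 residues were called. Leucine, at a difference of 2.84, and glycine, at 3.05 percentage points, were then higher in 10 of 10 mice, and phenylalanine was no longer called. The number called was 4 with each public chain counted in 1 of its mice, 7 without WT mouse 23 and 6 with each cell counted. The differences are shares of a whole, so that a residue that rises lowers the others.

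The public share of a mouse's chains was similar in the conditions. Public chains were 9.38%, 9.27%, 11.97%, 9.31% and 9.72% of the CDR3β of WT mice 11, 12, 14, 23 and 36, and 10.3%, 10.1%, 11.1%, 11.5% and 10.5% of those of 564Igi mice 13, 17, 21, 24 and 34. WT mouse 14 lay above all 564Igi mice and the other 4 WT mice below them. The means were 9.93 ± 1.15% in WT and 10.7 ± 0.604% in 564Igi chimeras. The difference of 0.772 percentage points was within the spread between mice (95% interval -0.548 to 1.98, exact permutation test over 252 assignments, two-sided p = 0.214).

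The share depends on how many chains a mouse contributed, on average 789 in WT and 603 in 564Igi chimeras. Without WT mouse 14, whose receptor table stood apart, the difference was 1.01 percentage points (exact p = 0.0317). With equal numbers of cells per mouse the difference was 0.383 (exact p = 0.460), and without the rule on the leading residues it was 0.0346 (exact p = 0.960). It was -0.288 when a public chain had to occur in 3 or more mice (exact p = 0.294), so no difference between conditions was settled by these 10 mice.

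More public chains were found in both conditions than in either alone. Of the 321 public chains, 186 (57.9%) were found in both conditions, 80 in WT chimeras only and 55 in 564Igi chimeras only. Of the 265 in exactly 2 mice, 139 spanned the conditions, and 25 of the possible pairs of mice do so against 10 pairs within each condition. Any 2 mice shared 3 to 23 CDR3β. Per 1000000 possible pairs of sequences, mice of the same condition shared 22.8 and mice of different conditions 20.95, a difference of 1.87 (exact permutation of mice, p = 0.333). Without WT mouse 14 the difference was 5.10 (exact p = 0.0317), with equal numbers of cells per mouse it was 5.09 (exact p = 0.0952), and without WT mouse 36 it was -0.171, so whether mice of a condition shared more was not settled.

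**Figure D4:**
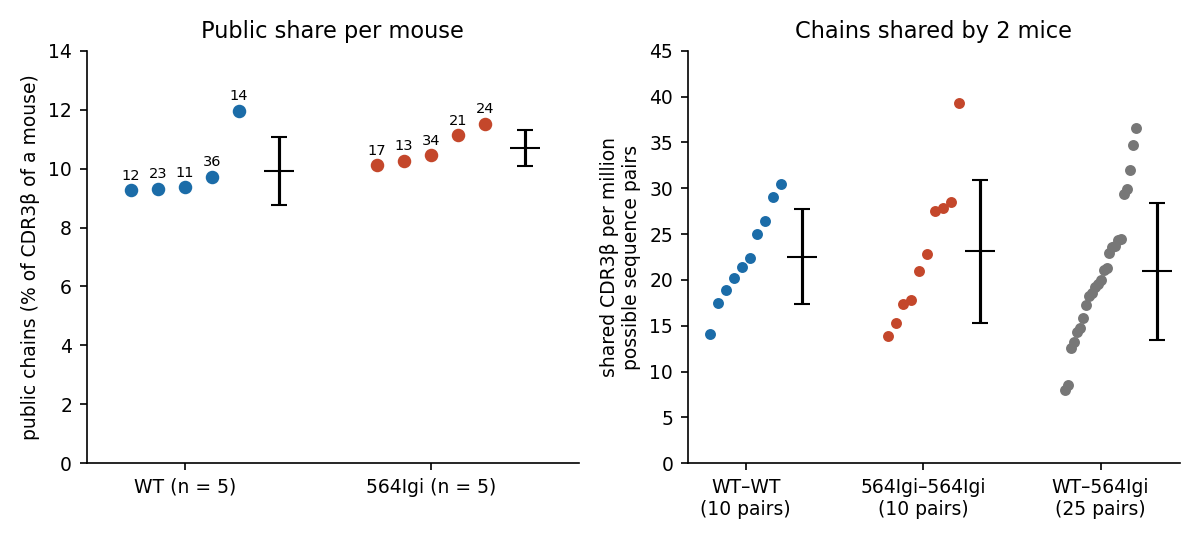
Left, percentage of a mouse's different CDR3β that are public, 1 point per mouse with its number, and the mean with SD. Right, shared CDR3β per 1000000 possible sequence pairs for each pair of mice within WT, within 564Igi and between conditions, with mean and SD. WT mouse 14, at 11.97%, is above the other 9 mice, and the 3 kinds of pair overlap over most of their range.

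Clonotypes with a public β chain were slightly larger. A clonotype is the set of cells of a mouse with the same CDR3α and CDR3β, and sizes were averaged as log2 of the cell number, where 0 is a clonotype of 1 cell. The mean was 0.590 ± 0.164 for clonotypes with a public β chain and 0.486 ± 0.117 for those with a private one. In WT mice 11, 12, 14, 23 and 36 the difference was -0.0219, 0.227, 0.0532, 0.0863 and 0.0935. In 564Igi mice 13, 17, 21, 24 and 34 it was 0.0409, 0.00656, 0.158, 0.227 and 0.166, so it was positive in 9 of 10 mice and close to 0 in several. The mean difference on the log2 scale was 0.104 ± 0.0877, with a 95% interval of 0.0396 to 0.165 (exact sign-flip test, p = 0.00586).

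Clonotypes of 2 or more cells were 28.2% of those with a public and 25.1% of those with a private β chain (exact p = 0.0273). A public β chain was also joined to more α chains within a mouse, 1.33 against 1.22 (exact p = 0.00391). WT mouse 14, which stood apart in this measure, had 2.19 against 1.86, and no test without it is given. Cells per β chain, on the log2 scale, differed by 0.190 ± 0.125 (exact p = 0.00195). The difference in clonotype size lost its significance without the 16 chains whose α and β pair was found in several mice (0.0547, exact p = 0.0820) and when β chains without the leading Cys-Ala-Ser-Ser were admitted (0.0728, exact p = 0.0586).

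Sharing of the complete receptor was rare. Among 8582 αβ clonotypes of single mice, 16 different pairs of CDR3α and CDR3β were found in 2 or more mice, and 3 of these in 3 mice. None of the 16 involved a cell barcode shared between libraries. The pairs were mostly small, but 2 of them held 134 and 156 cells. They were chosen for printing as the pairs in 3 mice and the largest pair.

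The first pair, with 14 residues in its CDR3β, joined TRBV19 and TRBJ1-5 with TRAV6-3 and TRAJ30. It was found in 102 cells of 564Igi mouse 17, 29 cells of WT mouse 23 and 3 cells of 564Igi mouse 24, each mouse with a nucleotide sequence of its own.
564Igi mouse 17: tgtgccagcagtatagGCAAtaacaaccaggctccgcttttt
WT mouse 23: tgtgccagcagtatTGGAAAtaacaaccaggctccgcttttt
564Igi mouse 24: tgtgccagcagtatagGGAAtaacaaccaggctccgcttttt

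These differ at 1 to 2 bases and encode the same residues. Of its 105 cells with a cluster, 100 were TFR cells. The second pair, TRBV3 and TRBJ2-5 with TRAV21-DV12 and TRAJ58, was held by 10 cells of WT mouse 11 and by 1 cell each of WT mouse 23 and 564Igi mouse 13, and all 7 of its cells with a cluster were TFR cells.
WT mouse 11: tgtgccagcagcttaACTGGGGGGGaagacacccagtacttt
WT mouse 23 and 564Igi mouse 13: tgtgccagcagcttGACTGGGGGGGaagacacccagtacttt

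The third, TRBV12-1 and TRBJ1-4 with TRAV7D-2 and TRAJ30, had 1 nucleotide sequence in WT mice 23 and 36 and 564Igi mouse 34, in 5 cells.
WT mice 23 and 36 and 564Igi mouse 34: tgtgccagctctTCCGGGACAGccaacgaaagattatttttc

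The largest pair was held by 131 cells of 564Igi mouse 24 and 25 cells of 564Igi mouse 21, again in different nucleotide sequences, and joined TRBV13-1 and TRBJ2-7 with TRAV4D-4 and TRAJ22. The largest private chain of the WT chimeras, with 226 cells in WT mouse 12, used the same 4 genes. It is shown beside the pair because it is private by 1 residue, and both were picked after their sizes were seen.
564Igi mouse 24: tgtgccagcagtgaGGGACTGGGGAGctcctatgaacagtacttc
564Igi mouse 21: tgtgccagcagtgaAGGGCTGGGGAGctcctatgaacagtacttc
Private, WT mouse 12: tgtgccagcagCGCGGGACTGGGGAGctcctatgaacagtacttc

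The private sequence differed from the public ones at 2 to 4 bases and at 1 of 15 residues. The 4 genes occurred together in 457 cells of 9 mice, with 11 different CDR3β, each of 15 residues, of which 3 were public, and with 4 different CDR3α. They made up 12.4% of the cells of WT mouse 12 (233 cells) and 12.4% of those of 564Igi mouse 24 (150 cells). In the other 7 mice they were 1 to 29 cells. Among the cells with a cluster, 19 of 132 in WT mouse 12 and 12 of 44 in 564Igi mouse 24 were TFR cells. The rule on exact sequence identity thus put neighbouring receptors in different classes.

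The cluster names of the study were checked against their markers in the 12627 cells that were also in the gene expression table. Foxp3 was detected in 57.1% of the 5276 TFR cells and in 3.90% to 6.73% of cells of 4 of the other clusters, but also in 24.9% of the 173 interferon-stimulated TFH cells. Tnfsf8 was detected in 64.0% of the 5218 activated TFH cells and in 77.2% of the 1335 Sostdc1 TFH cells, so it did not separate these clusters, while Sostdc1 was detected in 100% of the latter. Sox4 was found in 71.5% of central memory, Ccl5 in 82.2% of effector and Ifit1 in 86.1% of interferon-stimulated TFH cells.

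Public and private chains were found in the same clusters. With each β chain counted once per mouse by the share of its cells in the TFR cluster, the mean share was 46.0 ± 8.99% for public and 46.9 ± 5.73% for private chains. In WT mice 11, 12, 14, 23 and 36 public chains had 53.5%, 59.9%, 55.4%, 36.8% and 37.98%, against 45.3%, 60.04%, 47.96%, 43.97% and 46.96% in private chains. In 564Igi mice 13, 17, 21, 24 and 34 the values were 44.7%, 33.3%, 50.01%, 48.97% and 38.98% for public and 51.7%, 44.3%, 47.2%, 39.5% and 41.8% for private chains. The difference was higher in 4 and lower in 6 mice, -0.911 ± 7.62 percentage points on average (95% interval -6.81 to 4.69, exact p = 0.701, adjusted p = 0.834).

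Activated TFH cells were 37.6% of public and 37.2% of private chains, with an interval of the difference of -3.58 to 4.12 percentage points. Effector TFH cells were 2.52% and 1.77% (interval -0.0475 to 1.53, exact p = 0.0664, adjusted p = 0.398). None of the 6 clusters was called. Differences of up to several percentage points in the TFR share therefore remained within the error of 10 mice.

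Public chains were also compared across their mice. For each public chain of a mouse, its cells in the other mice were classed as mostly TFR or mostly not TFR, and the TFR share of the chain in the mouse itself was averaged by that class, which used 10 to 30 chains of each class per mouse. Chains that were mostly TFR elsewhere had a TFR share of 50.9 ± 12.9%, and chains that were mostly not TFR elsewhere 41.6 ± 6.77%. The difference was 9.30 ± 10.2 percentage points and was positive in 7 of 10 mice (exact sign-flip test, p = 0.0254).

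In WT mice 11, 12, 14, 23 and 36 the difference was 18.98, 24.1, 12.4, 10.1 and 9.13 percentage points. In 564Igi mice 13, 17, 21, 24 and 34 it was 10.8, -4.49, 18.7, -5.97 and -0.773, so the 3 mice that went the other way were all 564Igi chimeras, but the conditions overlapped (exact permutation test of the difference, p = 0.0873). The same chains enter in more than 1 mouse. The call was lost without the chains whose αβ pair was in several mice (6.52, exact p = 0.0859, 9 mice) and without WT mouse 11, 12, 14 or 23 (7.05 to 10.6, exact p from 0.0625 to 0.109).

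**Figure D5:**
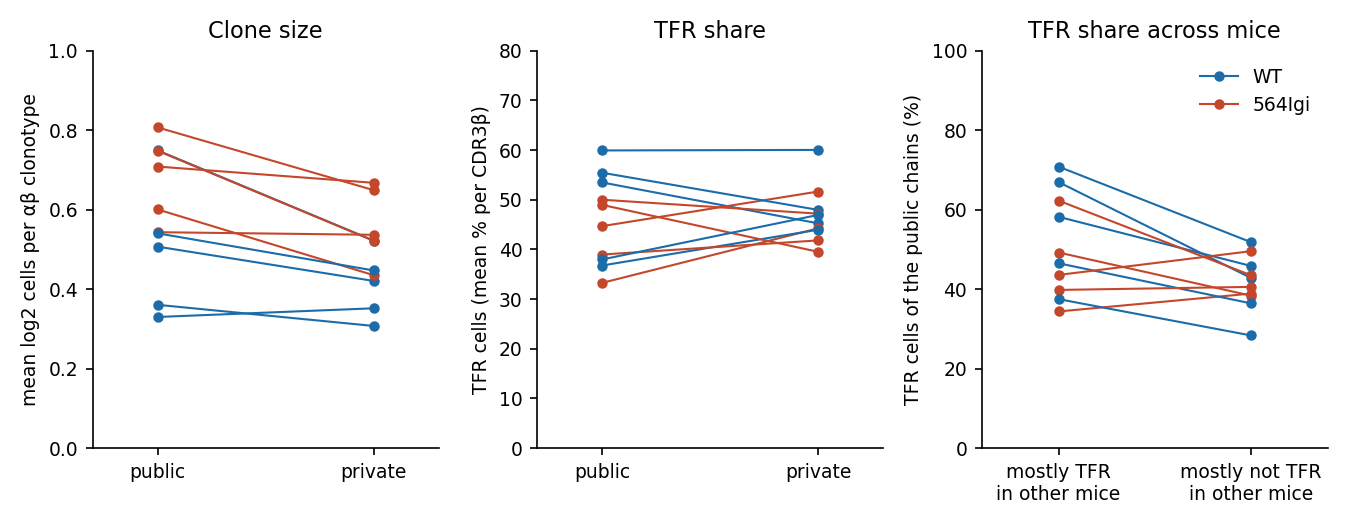
One line per mouse, WT in blue and 564Igi in red. Left, mean log2 cells per αβ clonotype by class of its β chain. Middle, mean percentage of TFR cells per CDR3β in public and private chains. Right, mean percentage of TFR cells of public chains that were mostly TFR or mostly not TFR in the other mice. Clone size falls from public to private in 9 mice, the middle lines cross in both directions, and 7 of the right-hand lines fall.

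The chains shared by the most mice differed in the clusters of their cells. Of the 10 chains in 4 or 5 mice, the first had 5 TFR and 4 activated TFH cells, and the second 3 and 3. A chain of 13 residues with TRBJ2-7, found in 564Igi mice 13, 17 and 34 and WT mouse 14, had 11 TFR cells of 12. Of those 12 cells, 9 were from 564Igi mouse 13 and 1 from each of the other mice. Another of 13 residues with TRBJ2-7, in WT mice 11, 23 and 36 and 564Igi mouse 21, had 7 of 7. WT mouse 36 held 6 of the 10 cells of that chain, counting those without a cluster. The remaining 6 chains had 1 to 8 cells with a cluster.

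No difference in gene expression between cells with public and cells with private β chains passed the test. Deposited values were averaged per β chain and then per class and mouse as log2 of the corrected count plus 1, with 38 to 71 public chains per mouse. With limma, a gene was called at an adjusted p below 0.01 and a change of more than 0.2 in either direction on the log2 scale. None of 9956 genes was called (0% called), the lowest adjusted p was 0.594, and 523 genes (5.25%) had an unadjusted p below 0.05. With each cell counted, 1 gene had an adjusted p below 0.05 (lowest 0.0108), and with no filter on low genes 2 genes did (lowest 0.0421), none of them called by both limits. UMIs per cell were 4009 in public and 4130 in private chains (exact p = 0.0996).

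The gene furthest from 0 was Pdcd1, which encodes PD-1, the receptor used for the sort. Its mean level was 1.53 ± 0.27 in public and 1.39 ± 0.23 in private chains on the log2 scale, a difference of 0.14 (SE 0.04) that was positive in 10 of 10 mice (limma, unadjusted p = 4.9e-04, adjusted p = 0.594). Cxcr5, the other sorted receptor, had a difference of 0.07 (9 of 10 mice, limma adjusted p = 0.636). Neither passed the test.

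Of the 12 TFR identity genes none was called, and their median log2 difference was -0.01, with 5 members above 0 and 7 below. Foxp3 had a difference of 0.01 and Ctla4, an inhibitory receptor and the highest of the list, 0.04, while Tnfrsf4, a costimulatory receptor and the furthest from 0, had -0.09 (limma unadjusted p = 0.0265, adjusted p = 0.879). Among the 11 TFH help genes the median was 0.01, and the cytokines Il21 and Il4 had differences of -0.03 and 0.01. The 8 genes induced by or tuned to the receptor signal had a median of -0.01, with Nr4a1 at -0.01, Egr2 at -0.01 and the lowest member at -0.035. Cd5, a surface protein that follows signal strength, was the only 1 of the 8 above 0, at 0.08 (limma adjusted p = 0.901). For the 8 memory and homing genes, 7 effector genes and 7 interferon-stimulated genes the medians were -0.0047, 0.0098 and -0.0011, and none of their members was called. The median of all 9956 genes was -0.0015.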

How the data were processed

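Splenic CD4+ follicular T cells of 10 chimeras were sorted, and the authors made 10x 5′ gene expression and V(D)J libraries per mouse. The submitters' processing notes name Cell Ranger 4.0.0, Seurat 3.1.4 and GRCm38 (mm10). The authors kept cells with full-length productive α and β chains, and the deposited receptor table gives V and J names, CDR3 sequences and contigs per cell. The deposited cell table gives UMI and gene counts per cell, as counted and filtered by the authors, with their clusters. The deposited expression values are natural log values, ln of the sctransform-corrected UMI count plus 1, with receptor V and C genes removed by the authors and the conditions normalized separately before integration. Of these values 100% came within 0.01 of a whole corrected count, and they were re-expressed as log2 of the count plus 1, a pseudocount of 1 that understates changes of low genes. Doublets were not called.

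Nucleotide CDR3s were compared with germline segments of GRCm38 (RefSeq genome, GENCODE vM21 annotation): longest V match from the 5′ end, to the V segment the contig lay on or else the named one, longest match to any J segment from the 3′ end, then the longest D match of at least 4 bases between them. The remaining bases were called non-templated, which counts palindromic bases among them. In 19141 of the 19980 cells (95.8%) the translated nucleotide CDR3s were the listed amino acid CDR3s, and 19729 had 1 nucleotide CDR3β.

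Each different CDR3β counted once per mouse. Public and private chains of a mouse were compared by exact two-sided sign-flip tests over the 10 mice (1024 patterns, smallest p 0.00195), conditions by exact permutation of 5 against 5 (252 assignments, smallest p 0.00794), and genes by limma 3.58.1 with mouse as block, for genes detected in 1% or more of the cells of 5 or more mice. V and J genes needed 1% of chains. Intervals at 95% hold the values the exact test did not reject. Raw depth of the gene expression libraries is not used here. Named were the chains in the most mice, all called genes, residues and clusters with the 3 largest differences each way, and members of gene lists. Members, lists and tests were chosen with earlier results of these data known. The exact tests and limma were tested on simulated data. Python 3.11.15, numpy 2.4.6, pandas 2.3.3 and R 4.3.3 were used. Alternatives were other definitions of public, other cells and weights, each mouse left out, thinning to 1209 cells per mouse, and, chosen after the data were seen, counting each public chain in 1 of its mice, V genes from the contigs, matching sequence lists, all bases between V and J, and comparisons within a length. Mice are separate animals, with 1 library each.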

Additional observations from a re-analysis of the deposited data

Results flagged for a closer look

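Mice that stood apart from the other 4 of their condition were looked for in 76 sets of 5 values, and 5 were found, where chance gives about 1 in 20. WT mouse 14 had 11.97% public chains, against 9.27% to 9.72% in the other WT mice. In the public minus private differences, TRBJ1-6 stood apart in 564Igi mouse 21 at 2.08 percentage points, glycine in 564Igi mouse 24 at 4.14 and in WT mouse 12 at 6.47, and leucine in 564Igi mouse 17 at 5.72.

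The public minus private difference was compared between conditions for 58 measures by exact permutation of the mice, and 6 had an unadjusted p below 0.05, of which none passed adjustment over the 58. The length difference was -0.589 ± 0.119 residues in WT and -0.924 ± 0.147 in 564Igi chimeras (564Igi minus WT -0.334, exact p = 0.00794, the smallest that 5 against 5 mice allow, adjusted p = 0.153). It had an exact p of 0.0857 without mice 34 and 36, 0.111 with public chains of 3 or more mice and 0.127 with each public chain counted in 1 mouse.

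TRBJ2-4 was used more by public chains in the 5 WT mice, by 3.67 percentage points, and less in the 5 564Igi mice, at -1.94. The difference was -5.61 (exact p = 0.00794, adjusted p = 0.153), and it was -2.42 (exact p = 0.429) with public chains defined by CDR3, TRBV and TRBJ. The exact p was 0.190 in the cells that passed the gene expression filters and 0.254 with each public chain counted in 1 mouse. With public chains of 3 or more mice it was 0.317, and the 564Igi mean was then positive, at 2.98. For the share of central memory TFH cells the difference between conditions was -4.42 percentage points (exact p = 0.00794, adjusted p = 0.153), from 2.45 in WT and -1.97 in 564Igi chimeras.

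TRBV29 differed by 1.20 percentage points (exact p = 0.0476), TRBJ2-5 by 4.74 (exact p = 0.0397) and valine by -0.757 (exact p = 0.0317), each with an adjusted p of 0.460.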

How the results depend on the processing

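Length, non-templated bases and the count of 0 genes called by limma kept their direction and side of the threshold without each mouse. They did so too under all of their 13, 4 and 8 alternatives. Length differed by -0.983 to -0.633 residues over the alternatives. The 4 alternatives for non-templated bases were all chosen after the data were seen, and no other definition of public was among them. They gave -1.81 to -1.40 non-templated bases, and -2.65 for a different measure, all bases between the V and the J match. Without 1 mouse, length differed by -0.832 to -0.689 residues and non-templated bases by -1.88 to -1.75, and 0 to 0 genes were called. Without 1 mouse the ranges were 0.0686 to 0.121 for clone size, 7 to 13 central residues, 0 to 8 TRBV genes, 0 to 3 TRBJ genes, 0.253 to 1.04 percentage points for the public share by condition, -0.171 to 5.10 for sharing within against between conditions, -3.35 to 1.59 percentage points for the TFR share and 7.05 to 14.4 for the TFR share by cluster in other mice. The TFR share was positive without 564Igi mouse 17 (0.788) or 34 (0.0335) and without WT mouse 23 (1.59) or 36 (0.0246), always far from the threshold.

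With public chains of 3 or more mice the differences were -0.288 for the public share, -0.303 for sharing and 1.12 for the TFR share. In cells that passed the gene expression filters they were -0.106 and -0.850, with 1 TRBJ gene and 7 residues called. With public defined by CDR3, TRBV and TRBJ, 7 residues were called and the TFR share was 3.59. Without the leading-residue rule 10 TRBV genes were called and clone size differed by 0.0728. Without the αβ pairs of several mice, clone size (0.0547) and the TFR share by cluster in other mice (6.52) missed the threshold, as did the latter without mice 34 and 36 (11.1, 6 mice) and after thinning (25.5, 5 mice, which allow no p below 0.0625). Without mice 34 and 36 the TFR share was 1.55. Thinning left 2 TRBV genes, public chains of 1 condition 0, and counting each cell 0, with 6 residues and a TFR share of 1.34. Chains held by 1 cell left 1 TRBJ gene. Counting each public chain in 1 mouse, chosen after the data were seen, left 0 TRBV genes, 0 TRBJ genes and 4 residues, and gave a TFR share of 1.28. The causes were not tested. The TFR share by cluster in other mice had no value, for want of 10 chains of each kind, with public chains of 3 or more mice, of CDR3 with TRBV and TRBJ, of 1 condition or of 1 cell. No paired analysis was possible because the conditions share no replicate numbers. Public chains are 52 to 99 per mouse, which limits rare genes and clusters, and intervals cover the spread between mice only.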

Other observations

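Among the 321 public chains, 112 (34.9%) were held by 1 cell in every mouse in which they were found, and 100 (31.2%) had at least 1 nucleotide sequence with no non-templated base. A further pair found in several mice, in 4 cells of WT mouse 12 and 12 cells of WT mouse 36, used TRBV13-1, TRBJ2-7, TRAV4D-4 and TRAJ22, as did the largest pair, with 1 nucleotide CDR3β in both mice, and all 8 of its cells with a cluster were activated TFH cells. A pair of TRBV3 and TRBJ2-3 with TRAV16 and TRAJ34 was held by 7 cells each of WT mice 23 and 36 in different nucleotide sequences, with 7 TFR cells of 12. These were picked after their values were seen.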
